A study of Mus musculus with 7 samples.

Results

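The 10 genes Gap43, Gpm6a, Nefl, Cntn1, Cntn2, Nrcam, Alcam, Ncam1, Astn1 and Astn2 encode proteins of growing axons and of the surfaces of migrating neurons, and they were taken by name from 22028 annotated protein-coding genes. Peaks were assigned to a gene when their centre lay in the gene body or within 50 kb of it on mm10 (GRCm38), with gene bounds from GENCODE M21. This rule gave 115 of 31400 H3K27ac peaks and 6 of 1946 Chd7 peaks from WT granule neuron progenitors (GNPs), and 0 of 96 Chd7 peaks from Chd7-deficient GNPs. In the same windows lay 37 of 17030 Top2b peaks of WT granule neurons (CGNs) and 57 of 21505 Top2b peaks of Chd7-deficient CGNs.

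The study asked which sites the chromatin remodeller Chd7 occupies in the developing mouse cerebellum, and whether Top2b, a DNA topoisomerase, is placed on chromatin differently without it. All cells came from P7 pups whose sex was not distinguished, labelled C57BL/6 and, per the study's methods, of C57BL/6N background. WT cells carried the floxed Chd7 alleles without Cre (Chd7 f/f) and Chd7-deficient cells were Atoh1-Cre::Chd7 f/f, in which Cre is driven by Atoh1 and acts in the granule cell lineage, so that other cells in the preparation keep Chd7. With this Cre some Chd7 protein remains in the posterior lobe. GNPs were freshly isolated and CGNs were GNPs kept for 48 hours without SHH, the mitogen of these cells. H3K27ac was profiled in WT GNPs only, Chd7 in GNPs of both genotypes and Top2b in CGNs of both genotypes, with 1 library per condition. No difference between genotypes or genes could therefore be set against variation between animals, and no test was run. The intervals given below cover only the counting of fragments or, for shares, the counting of peaks taken as independent.

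Granule neurons arise from progenitors in the outer layer of the cerebellum, extend parallel fibres as they leave the cell cycle, and then migrate inwards along Bergmann glia. Growth cone proteins and neurofilaments build and support the axon, whereas immunoglobulin-type adhesion molecules and astrotactins mediate contacts between axons, neurons and glia. H3K27ac marks active promoters and enhancers, and a peak in ChIP-seq is a place where the DNA fragments pulled down by an antibody pile up over the local background.

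The 6 Chd7 peaks are the sites on which the comparison of Chd7 with acetylation rests, and their sequences are shown for that reason. Each line gives the plus strand of GRCm38, 5′ to 3′. Of 5 peaks, 151 bases centred on the Chd7 summit are printed, and of the peak at the Gpm6a start, whose summit lies in the first exon, the 240 bases that precede the first annotated transcript base. Capitals mark matches, on either strand, to any of 6 short sequences that were searched. CAGCTG is an E-box, of the kind bound by neuronal bHLH factors, and CAGATG is another. The letters TTGGCA are a part of the site of NFI factors. The letters CCTGCTG occur in sites of Zic factors, the letters ACAAAG in those of Sox factors, and TGANTCA in those of AP-1.
Gap43 first intron, chr16:42294597-42294747: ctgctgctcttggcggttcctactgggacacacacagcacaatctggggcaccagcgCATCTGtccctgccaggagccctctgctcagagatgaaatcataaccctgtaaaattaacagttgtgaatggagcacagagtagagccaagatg
Gap43 upstream, chr16:42360036-42360186: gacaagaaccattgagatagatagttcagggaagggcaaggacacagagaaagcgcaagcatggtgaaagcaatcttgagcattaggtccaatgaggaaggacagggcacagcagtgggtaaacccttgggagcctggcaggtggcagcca
Gpm6a start, upstream part, chr8:54954603-54954842: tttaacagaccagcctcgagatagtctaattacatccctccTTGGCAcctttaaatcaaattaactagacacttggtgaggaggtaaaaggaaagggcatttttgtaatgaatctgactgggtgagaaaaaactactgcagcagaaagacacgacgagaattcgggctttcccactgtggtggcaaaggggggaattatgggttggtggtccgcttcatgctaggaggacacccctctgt
Gpm6a first intron, proximal, chr8:54992107-54992257: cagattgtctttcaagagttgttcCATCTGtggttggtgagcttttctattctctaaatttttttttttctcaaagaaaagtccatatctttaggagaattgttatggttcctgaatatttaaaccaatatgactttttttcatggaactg
Gpm6a first intron, distal, chr8:55034433-55034583: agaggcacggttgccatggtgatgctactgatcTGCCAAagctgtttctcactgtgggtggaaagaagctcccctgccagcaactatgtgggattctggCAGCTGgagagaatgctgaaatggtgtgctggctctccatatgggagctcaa
Nefl upstream, chr14:68040817-68040967: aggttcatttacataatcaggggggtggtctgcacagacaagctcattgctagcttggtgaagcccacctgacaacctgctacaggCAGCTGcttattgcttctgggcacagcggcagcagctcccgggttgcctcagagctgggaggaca

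CAGATG or its reverse complement was found at the Gap43 intronic peak and at the proximal Gpm6a intronic peak. CAGCTG, which is its own reverse complement, was found at the distal Gpm6a intronic peak and at the Nefl peak. In the summit windows, 2 of the 6 peaks held CAGCTG, 2 held CAGATG and 1, the distal Gpm6a site, held TTGGCA, and none held the other 3 sequences. The TTGGCA in the printed stretch at the Gpm6a start lies outside the summit window of that peak. The same windows of all WT Chd7 peaks held CAGCTG in 16.1%, CAGATG in 19.1%, TTGGCA in 14.6%, CCTGCTG in 7.1%, ACAAAG in 9.15% and TGANTCA in 2.79% of 1902 windows. Any of the 6 was present in 4 of the 6 windows and in 49.6% of all Chd7 windows, against 40.6% of 31395 windows on H3K27ac summits. The upstream Gap43 sequence held none of these letters. The GC content of the printed stretches ran from 31.1% at the proximal Gpm6a intronic peak to 56.3% at the Nefl peak, which is also the median of all Chd7 windows. A match is a description of the letters and not evidence of binding by a factor.

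Gap43, Gpm6a and Nefl had a Chd7 peak in WT GNPs (within 50 kb), and the 7 genes for contactins, L1 and Ncam type adhesion molecules and astrotactins had none. Thus 3 of the 10 genes had a Chd7 peak, beside 14.3% of all protein-coding genes and 17.7% of the protein-coding genes of at least 30 kb, a length that 9 of the 10 reach. In the gene body itself 2 had one, Gap43 and Gpm6a, beside 4.33%. With 10 genes these shares rest on single genes. In Chd7-deficient GNPs 0 of the 10 genes had a peak, beside 0.227% of protein-coding genes. The 6 sites were also free of overlap with any peak called without Chd7, beside 3.19% of all WT Chd7 peaks with such an overlap, and no peak of that library lay within 50 kb of any of them. The nearest one to any of the genes was 11.5 Mb away, from Cntn1, and the chromosomes of Gap43, Nefl, Cntn2, Nrcam, Alcam and Astn1 carried none at all. The library gave 96 peaks, of which 57 lay on chromosomes 1 to 19, X and Y. Its depth relative to the WT library is not known.

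Gap43 encodes an abundant growth cone phosphoprotein (gene ENSMUSG00000047261.9, chr16:42248442-42340651, minus strand). Its stronger Chd7 peak, chr16:42294473-42294830, lay in intron 1 of 2, with the summit 46 kb into the gene and 18.6 kb from an alternative Gap43 start. The summit held 23 fragments (95% Poisson interval 14.6 to 34.5), which is 4.81-fold over the local background (3.13 to 7.12). The weaker peak, chr16:42359903-42360206, was centred on intergenic sequence 19.5 kb upstream of the gene, with 17 fragments (9.9 to 27.2) and a fold enrichment of 3.5 (2.12 to 5.49). Their places among all WT Chd7 peaks were the 79.3 and 20.1 percentile of fold enrichment, and their intervals overlapped. The upstream peak was close to the calling threshold, with a −log10 q-value of 2.65 against 6.47 for the intronic one.

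Gpm6a encodes a proteolipid-family membrane glycoprotein that promotes neurite and filopodium outgrowth (ENSMUSG00000031517.8, chr8:54954843-55060871, plus strand), and it was the gene with the most Chd7 peaks of the 10. It had 3, a number reached by 0.413% of protein-coding genes of all lengths. The first, chr8:54954603-54955417, spanned the start of the gene, with its summit 0.305 kb downstream in the non-coding part of exon 1 of 7, where 21 fragments (13 to 32.1) gave a fold enrichment of 5.56 (3.54 to 8.36). The second, chr8:54991898-54992356, lay in intron 1 of 6, with a summit 37.3 kb from the start that held 19 fragments (11.4 to 29.7) at 3.7-fold (2.3 to 5.67). The third, chr8:55034227-55034681, lay in the same intron 79.7 kb from the start, with 22 fragments (13.8 to 33.3) at 4.47-fold (2.88 to 6.67). The start-site peak had the highest fold of these, yet the intervals of all 3 overlapped. Intron 1 measures 82 kb and makes up 77.3% of the gene, and it also held 20 of the 26 H3K27ac peaks of the Gpm6a window.

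Nefl encodes the light neurofilament subunit (ENSMUSG00000022055.7, chr14:68083863-68089095, plus strand). Its Chd7 peak, chr14:68040605-68041063, was intergenic, 43 kb upstream of the start, with 24 fragments (15.4 to 35.7) and a fold enrichment of 5.58 (3.65 to 8.19). This was the largest fold of the 6, at the 92.3 percentile of all WT Chd7 peaks, and its interval overlapped those of the others. Nefl had the nearest protein-coding start, but Nefm, the medium subunit gene, is annotated across Nefl on the opposite strand and its window also takes in the peak, and ChIP-seq does not show which gene a distal site acts on. The peak lay close to the edge of the rule. The nearest Chd7 peaks beyond it were 78.3 kb upstream of Astn2, at 3.03-fold, and 91.8 kb downstream of Cntn2, at 3.74-fold and on the start of Dstyk, and the other 5 genes had none within 100 kb. For Nrcam, Ncam1, Astn1, Alcam and Cntn1 the nearest lay 411, 654, 842, 1482 and 2307 kb away.

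**Figure D1:**
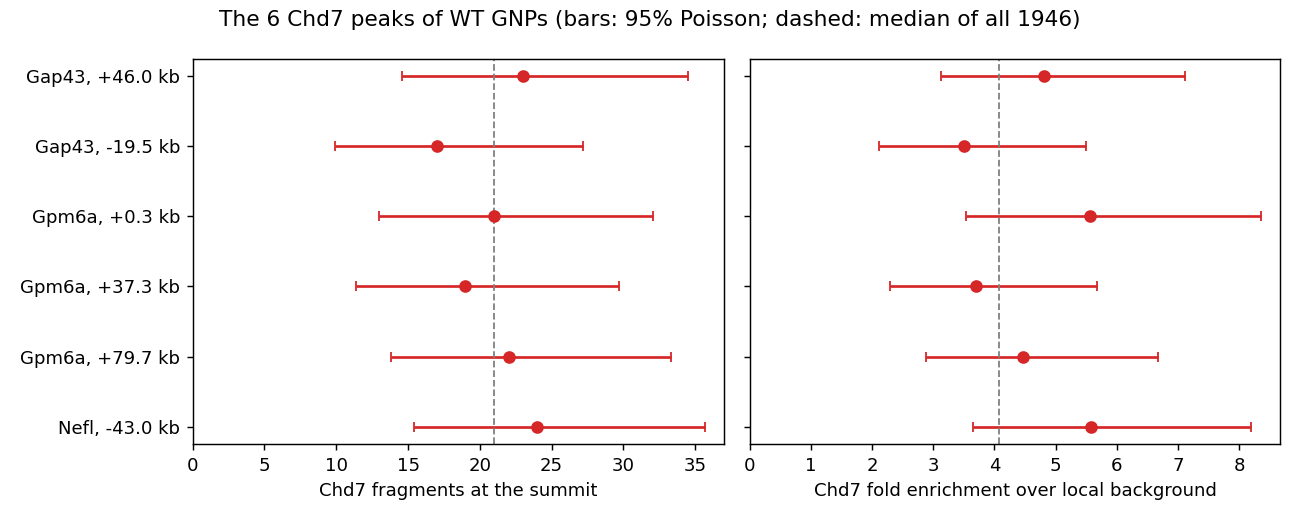
The 6 Chd7 peaks of WT GNPs, with fragments at the summit on the left and fold enrichment on the right. Labels give the gene and the signed distance of the summit from the gene start in kb, bars are 95% Poisson intervals and dashed lines are the medians of all 1946 peaks, 21 fragments and 4.07-fold; all intervals overlap.

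Every one of the 6 Chd7 peaks overlapped an H3K27ac peak (100%, 95% Wilson interval 61 to 100), beside 77.9% of all WT Chd7 peaks. In the other direction, 6 of the 115 H3K27ac peaks carried Chd7 (5.22%, 2.41 to 10.9), beside a similar 4.98% over the genome. That interval takes the peaks as independent, although 26 of the 115 and 3 of the 6 lay at Gpm6a. The acetylated sites under Chd7 differed widely. The one at the Gpm6a start reached 26.7-fold, at the 99 percentile of all H3K27ac peaks, over 4834 bp. Those in the Gpm6a intron reached 13.5- and 11.3-fold and the one upstream of Nefl 14.05-fold, over 1854, 2691 and 2300 bp. Both sites at Gap43 were lower, with 5.34-fold in the intron and 4.31-fold upstream, near the genome-wide median of 4.35. The median was 12.4-fold for the 6 acetylated sites with Chd7 and 4.09-fold for the 109 without, and over the whole genome 10.6- and 4.25-fold.

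**Figure D2:**
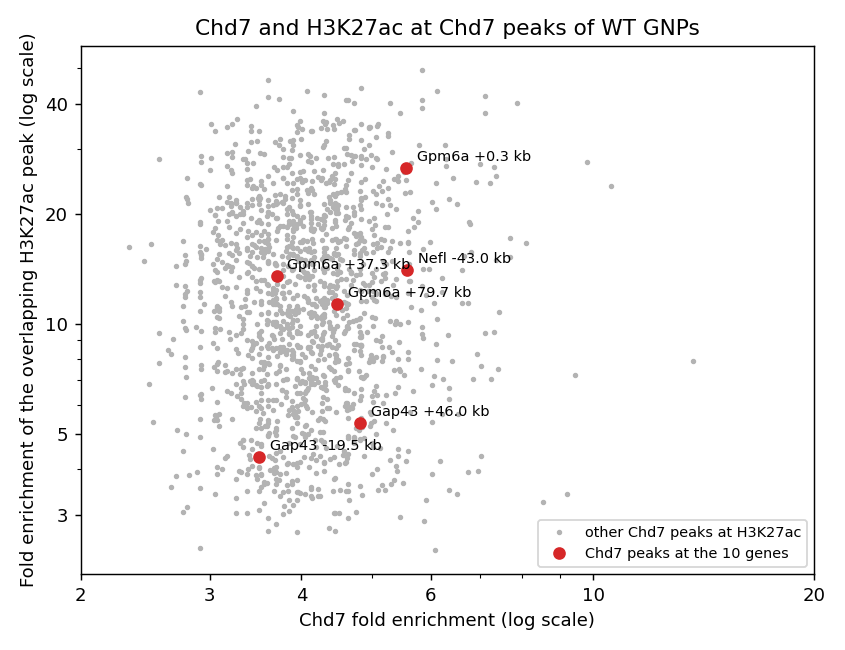
Fold enrichment of Chd7 (x axis, log scale) against that of the overlapping H3K27ac peak (y axis, log scale) in WT GNPs; each grey point is a Chd7 peak elsewhere and each red point one at the 10 genes. The Gpm6a and Nefl peaks sit on H3K27ac of 11.3- to 26.7-fold and the Gap43 peaks on 4.31- and 5.34-fold, although the Chd7 values run only from 3.5 to 5.58.

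All 10 genes had H3K27ac in their window, beside 73.2% of protein-coding genes, and all 10 had it within 1 kb of an annotated start, beside 46.4%. These shares cover genes of all lengths, and the part of window length was not tested. Gpm6a stood above the others, with a start-site peak of 26.7-fold (22.6 to 31.3). Below it came Ncam1 at 11.2 (9.1 to 13.7), Astn2 at 11.2 (9.29 to 13.4), Astn1 at 10.7 (8.92 to 12.7) and Cntn2 at 9.87 (7.81 to 12.3), which could not be told apart by their counting intervals. Gap43 at 7.0 (5.26 to 9.13), Nrcam at 6.77 (5.37 to 8.42) and Cntn1 at 6.48 (4.9 to 8.41) formed the next overlapping group, and Alcam at 4.31 (2.97 to 6.06) and Nefl at 3.77 (2.71 to 5.12) the lowest. In this order the only neighbours whose intervals did not overlap were Gpm6a and Ncam1. Above the median of the 10213 protein-coding genes with such a peak, 8.48-fold, lay 5 of the genes, and 5 lay below. Nefl, which carried the Chd7 peak of highest fold, thus had the weakest start-site acetylation, at the 8.75 percentile, whereas its acetylated site under Chd7 was the highest of its window.

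**Figure D3:**
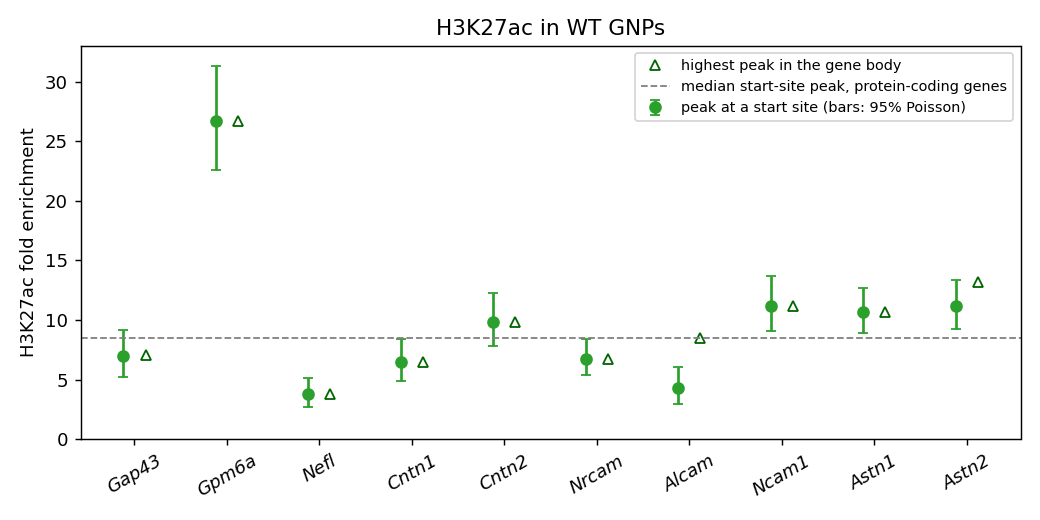
H3K27ac fold enrichment in WT GNPs at the start site of each gene (circles, bars are 95% Poisson intervals) and of the highest peak in the gene body (triangles). The dashed line is the median start-site peak of protein-coding genes, 8.48-fold; Gpm6a at 26.7 lies above it and Nefl at 3.77 and Alcam at 4.31 lie below.

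Away from the starts, the 115 H3K27ac peaks were mostly intronic, with 93 summits in introns, 11 upstream, 4 downstream, 5 in coding exons and 2 in non-coding parts of exons, and 102 of them (88.7%, Wilson interval 81.6 to 93.3) lay more than 1 kb from any start of their gene. Their folds ran from 2.04 to 26.7. Per 100 kb of window, Gpm6a had 12.6 peaks, Cntn2 5.98, Gap43 5.72, Nrcam 4.56 and Nefl 3.8. Alcam followed with 2.62, Cntn1 with 2.3, Astn2 with 2.05, Astn1 with 1.4 and Ncam1 with 0.756. The median of the 10 was 3.21 per 100 kb against 1.58 for protein-coding genes, and the windows of different genes vary in length from 105.2 kb for Nefl to 1124 kb for Astn2.

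Gpm6a was dense in strong peaks. Beyond its start, the highest stood at 21.1 kb (23.5-fold), 71.4 kb (21.5-fold), 37.8 kb (13.5-fold) and 88 kb (12.9-fold) from the start, and Chd7 was called at the 37.8 kb site but not at the other 3. Neighbouring H3K27ac peaks were joined into 17539 regions and ranked by width times pileup, and the 612 above the point where the rank curve steepens were taken as super-enhancer-like. Gpm6a overlapped 3 of these, ranked 383, 445 and 456, with lengths of 4.83, 29.8 and 28.1 kb, and each held 1 Chd7 peak. The region ranked 383 is the single H3K27ac peak at the Gpm6a start, whereas the others join 9 and 14 peaks. Of all such regions 40.5% held Chd7. Gpm6a was the only gene of the 10 to overlap one, beside 4.17% of protein-coding genes of all lengths.

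Gap43 had 11 H3K27ac peaks, from 2.9 to 7.08-fold, 10 of them in the gene. The highest of these, 34.1 kb into the gene, was not distinguishable from the start-site peak and carried no Chd7. The window of Nefl held 4 peaks, of which the upstream one at 14.05-fold stood above the start-site peak and the 2 downstream ones at 3.29- and 3.21-fold, which lie by the annotated start of Nefm.

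Among the contactins, glycosylphosphatidylinositol-anchored adhesion proteins of axons, Cntn1 (ENSMUSG00000055022.14, chr15:92051165-92341967, plus strand) had 9 peaks, of which the start-site one was the highest. Cntn2, also known as Tag1 and found on newly formed parallel fibres (ENSMUSG00000053024.14, chr1:132509427-132543256, minus strand), had 8, but only 3 lay in the gene, at 9.87, 7.0 and 5.97-fold. The highest of its window, at 26-fold, lay 0.147 kb from the start of Rbbp5, and a super-enhancer-like region of 37.2 kb, ranked 63, began 14.2 kb upstream of Cntn2. That region runs into Nfasc, an L1-family gene, and held no Chd7 peak. With it, 2 of the 10 windows held a super-enhancer-like region, beside 8.27% of protein-coding windows, which are not matched for length.

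The immunoglobulin-type adhesion genes differed among themselves. Nrcam, an L1-family protein that binds contactins and ankyrins (ENSMUSG00000020598.16, chr12:44328885-44601964, plus strand), had 17 peaks, all in the gene, from 2.48 to 6.77-fold. Alcam, an adhesion molecule of growing axons (ENSMUSG00000022636.13, chr16:52248996-52454074, minus strand), had 8 in the gene, and the highest was not at the start but 25.4 kb from the 5′ end of the gene, in the first intron, at 8.51-fold (6.38 to 11.1), the highest of 8, against 4.31 (2.97 to 6.06) at the start. These intervals did not overlap. Ncam1, the neural cell adhesion molecule (ENSMUSG00000039542.16, chr9:49502136-49798925, minus strand), had only 3, with 11.2-fold at the start and 4.88- and 3.44-fold at 40.8 and 75.9 kb. Its density was at the 33.2 percentile of protein-coding genes, the lowest of the 10.

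Astrotactins mediate the adhesion of migrating granule neurons to glial fibres, and Astn2 regulates the surface level of Astn1. Astn1 (ENSMUSG00000026587.15, chr1:158362273-158691781, plus strand) had 6 peaks, with 10.7-fold at the start and 9.02-fold at 128 kb. Astn2 (ENSMUSG00000028373.16, chr4:65380803-66404611, minus strand), the longest of the genes at 1024 kb, had 23, and its highest peak lay 189 kb into the gene, at 13.2-fold (10.6 to 16.2), where the start site had 11.2 (9.29 to 13.4). Their intervals overlapped. Neither gene had a Chd7 peak, and their levels at the start were between those of Gap43 and Gpm6a, so a higher start-site fold did not go with a Chd7 peak across these genes.

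**Figure D4:**
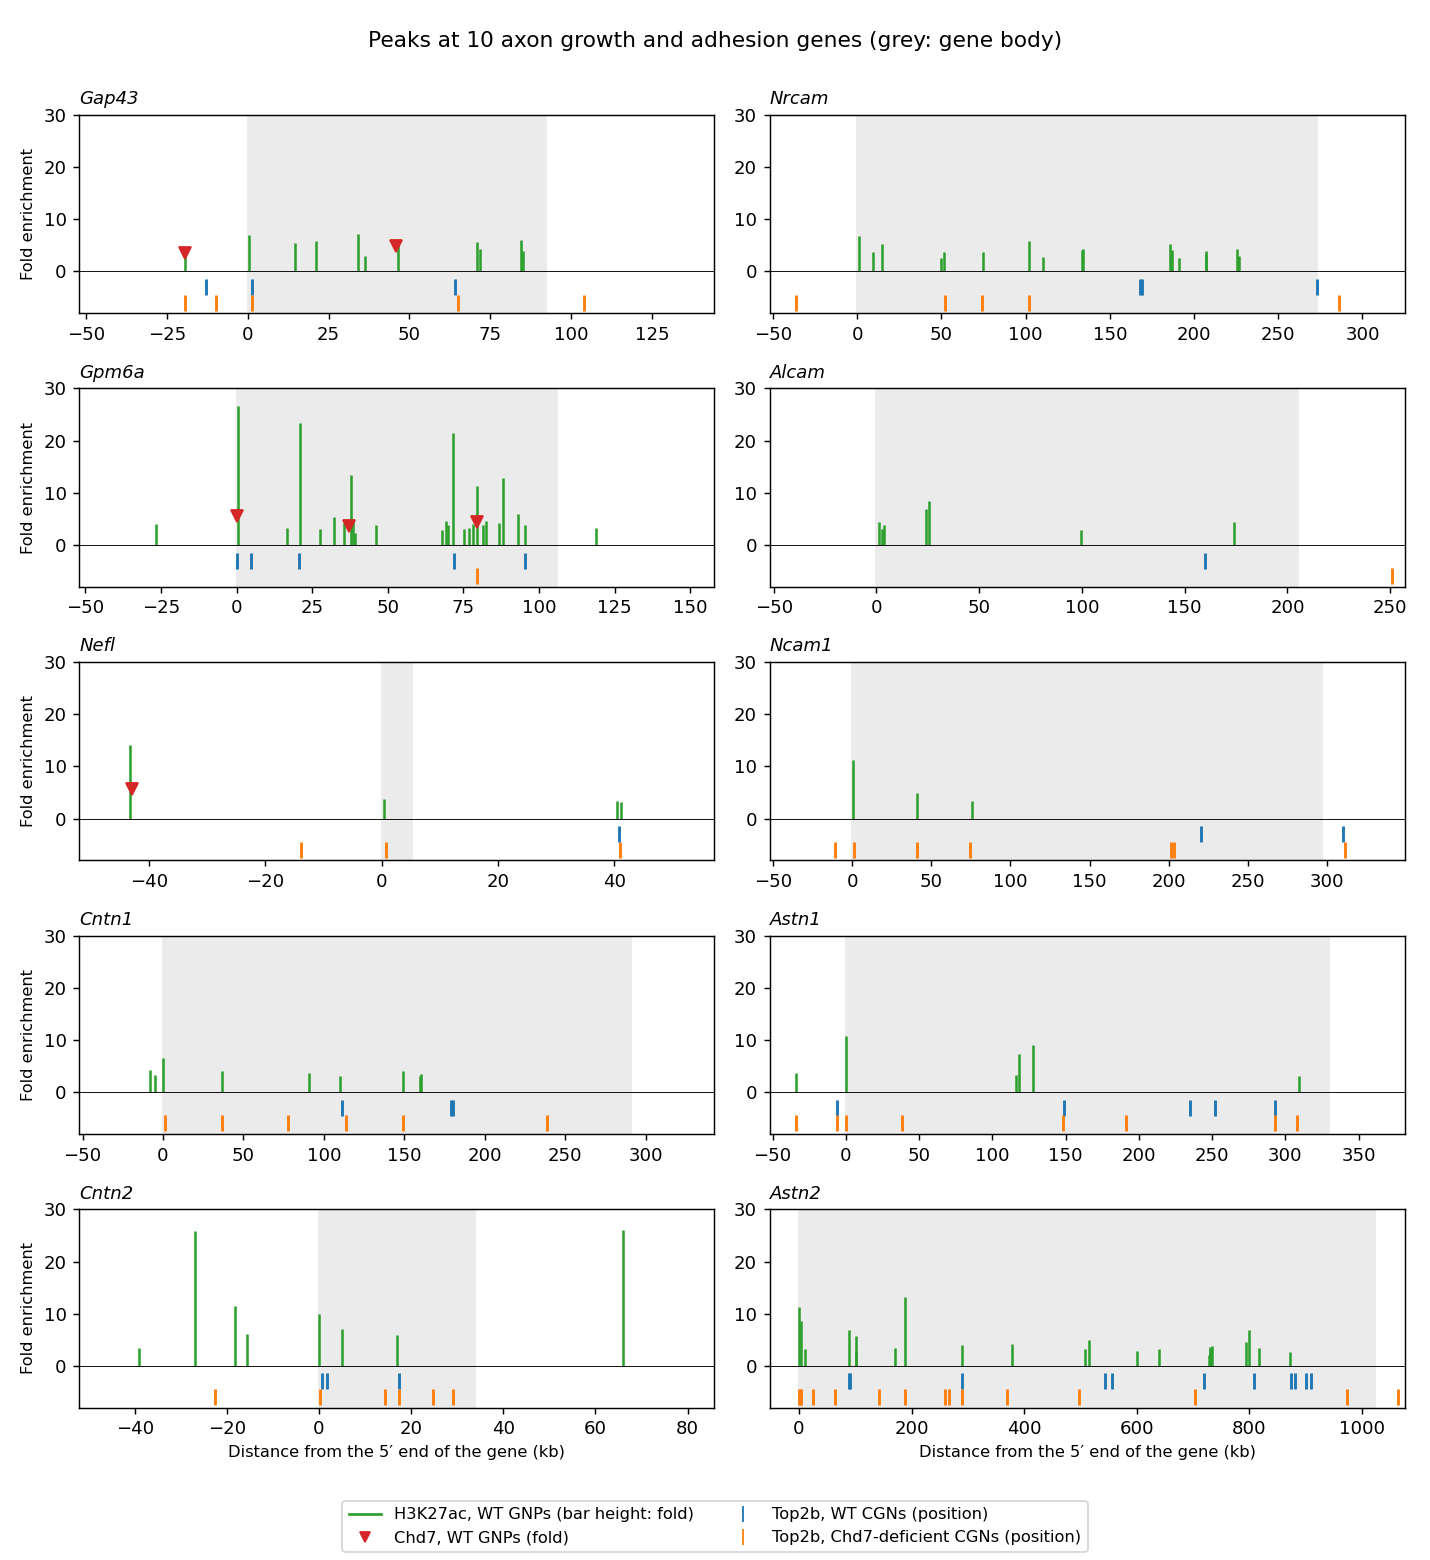
Peaks along each of the 10 genes, with distance from the 5′ end in kb on the x axis (gene body in grey, 50 kb on each side) and fold enrichment on the y axis. Green bars are H3K27ac and red triangles Chd7 in WT GNPs. The marks below 0 show positions of Top2b peaks in WT (blue) and Chd7-deficient (orange) CGNs, which have no height. Chd7 peaks were called at Gap43, Gpm6a and Nefl only, and Gpm6a has 5 blue marks and 1 orange mark.

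Top2b was called more often at these genes in Chd7-deficient CGNs than in WT CGNs, with 57 peaks against 37, a ratio of 1.54. Over the genome the ratio was 1.26, and it was 1.39 when summed over the windows of all protein-coding genes. More peaks in Chd7-deficient CGNs were called at 8 of the 10 genes, beside 43.3% of protein-coding genes and 46.7% of those of at least 30 kb. Gpm6a was the only gene with fewer, 1 against 5, beside 21.9% of protein-coding genes and 25.7% of those of at least 30 kb. In numbers, 9532 protein-coding genes had more and 4823 had fewer. The rest had equal counts, among them genes with no Top2b peak in either genotype. These shares are therefore not matched to the 10 genes, and the part of this was not tested. Alcam had 1 in each genotype, and every one of the 10 genes thus had a WT Top2b peak, beside 62% of protein-coding genes. That share covers genes of all lengths, with a median of 17.3 kb, and the part of length was not tested. The counts in WT and in Chd7-deficient CGNs were 3 and 5 for Gap43, 1 and 3 for Nefl, 3 and 6 for Cntn1, 3 and 6 for Cntn2, 3 and 5 for Nrcam, 2 and 7 for Ncam1, 5 and 8 for Astn1 and 11 and 15 for Astn2. In gene bodies alone the contrast was smaller, with 33 peaks in WT and 43 in Chd7-deficient CGNs. There the counts were equal at Gap43 and Nrcam, and Alcam, like Gpm6a, had fewer in Chd7-deficient CGNs. Differences of this size rest on 1 library per genotype and on peak calls alone, and the part of sequencing depth in them was not tested, since the Top2b files hold positions and neither heights nor read numbers.

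**Figure D5:**
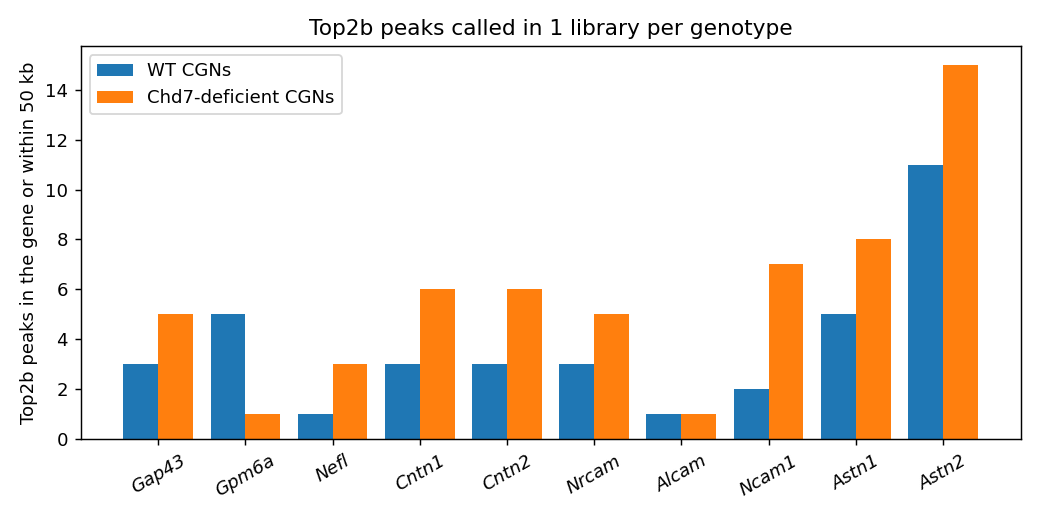
Number of Top2b peaks in each gene or within 50 kb of it, in 1 library of WT CGNs (blue) and 1 of Chd7-deficient CGNs (orange). The orange bar is higher at 8 genes, equal at Alcam and lower at Gpm6a, where it falls from 5 to 1.

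Few Top2b positions were called in both genotypes. Of the 37 WT peaks, 30 had no overlapping peak in Chd7-deficient CGNs (81.1%, Wilson interval 65.8 to 90.5), beside 83.2% of all WT Top2b peaks, and of the 57 peaks of Chd7-deficient CGNs 50 had none in WT, 87.7% beside 86.7%. The low overlap was thus a feature of the whole pair of libraries. It compares fixed-width calls, and nearby calls can fail to overlap, as at Gap43 with 64 kb in WT and 64.9 kb in Chd7-deficient CGNs. A missing overlap is therefore not a measured change of Top2b. The paper compared Top2b signal between genotypes and reported a minority of sites as altered. In it, more genes carried decreased than increased Top2b peaks. The 7 that were called in both genotypes lay at Gap43, Nefl, Cntn2, Astn1 and Astn2, with 2 each at Cntn2 and Astn1. H3K27ac of GNPs was present at 11 of the 37 WT peaks (29.7%, 17.5 to 45.8), beside 17.4% genome-wide, and at 21 of the 57 peaks of Chd7-deficient CGNs (36.8%, 25.5 to 49.8), beside 26.6%. The acetylation and Top2b were measured at different stages, in GNPs and in CGNs.

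At Gpm6a the WT Top2b peaks lay 0.262, 4.64, 20.8, 71.8 and 95.4 kb from the start. Of these, 4 overlapped H3K27ac, including the strong acetylated sites at the start, at 21.1 kb and at 71.4 kb, and the first overlapped Chd7. None of the 5 was called in Chd7-deficient CGNs, in which the single Top2b peak, at 79.6 kb, overlapped the distal intronic Chd7 site of WT GNPs. At Gap43 a Top2b peak of Chd7-deficient CGNs, at -19.4 kb from the start, overlapped the upstream Chd7 site, where WT CGNs had none. The Gap43 intronic site, the proximal Gpm6a intronic site and the Nefl upstream site had no Top2b peak in either genotype.

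Near the 5′ ends the calls ran in the other direction from those at Gpm6a. Within 2 kb of the 5′ end, a distance chosen after the positions were seen, 3 of the 10 genes had a WT Top2b peak (Gap43, Gpm6a and Cntn2), beside 11.2% of protein-coding genes. In Chd7-deficient CGNs 7 had one (Gap43, Nefl, Cntn1, Cntn2, Ncam1, Astn1 and Astn2), beside 22.1%. The share over all protein-coding genes was thus also higher in Chd7-deficient CGNs. All 10 genes had H3K27ac at a start, beside 46.4% of protein-coding genes, and the part of this was not tested. A Top2b peak within 2 kb was called only in Chd7-deficient CGNs at 5 genes, beside 15.7%, and only in WT at 1, Gpm6a, beside 4.84%. At Ncam1, for example, the WT peaks were 220 and 310 kb from the start, whereas those of Chd7-deficient CGNs included 1 at 1.15 kb and 1 at 40.8 kb, and both of these overlapped H3K27ac.

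Other genes of the same families and roles were examined from a fixed list of 46. As the list was chosen with earlier results of these data known, its shares are descriptions and not an independent result. A Chd7 peak of WT GNPs was called in or within 50 kb of 18 of them (39.1%), beside 14.3% of protein-coding genes and 17.7% of those of at least 30 kb, and none had one in Chd7-deficient GNPs. Of the 4 other contactins, the 3 other L1-family genes and the 1 other Ncam gene, 0 had a peak. Gpm6b, the paralogue of Gpm6a, had a peak of 4.44-fold, and of 4 other neurofilament-type genes Nefm alone had one, which is the Nefl peak itself. Among 16 growth cone and cytoskeleton genes 5 had a peak, at Stmn1 (3.37-fold) and Stmn2 (4.45-fold), which bind tubulin, at Map1b (3.16-fold) and Map2 (3.43-fold), which bind microtubules, and at Dpysl3 (4.28-fold), a collapsin response mediator.

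The remaining list, of 16 other neural adhesion genes, had the most, with 11. These genes are long, with a median of 747 kb against 59 kb for the growth cone and cytoskeleton list, so their windows are wider, and the part of length in this count was not tested. Of the 11 genes of at least 300 kb in it 9 had a peak, beside 27.9% of protein-coding genes of that length, a threshold chosen after the lengths were seen. The 4 other contactins, with 0 Chd7 peaks, have a median length of 716 kb, and each of their windows held 0 or 1 H3K27ac peaks. What part length or acetylation has in these counts was not tested. The genes with a peak included the cell adhesion molecules Cadm1 (4.6-fold for the higher of 2 peaks) and Cadm2 (3.38-fold), Bsg (3.52-fold), N-cadherin Cdh2 (4.49-fold) and its cytoplasmic partner Ctnna2 (4.65-fold). The teneurins Tenm1, Tenm2 and Tenm4 had peaks of 4.27-, 4.29- and 4.44-fold, and the IgLON proteins Lsamp, Ntm and Negr1 of 5.41-, 4.02- and 3.94-fold. The peaks at Tenm2 and Tenm4 did not overlap H3K27ac. Start-site H3K27ac was present at 32 of the 46 genes, beside 46.4% of protein-coding genes. None of the 4 other contactins had it, a group too small to set against that share. Top2b peaks were more numerous in Chd7-deficient CGNs at 23 of the 46, fewer at 16 and equal at 7. These are 50% with more and 34.8% with fewer, beside 43.3% and 21.9% of protein-coding genes, or 9532 and 4823 genes. The protein-coding shares also count genes with no Top2b peak in either genotype, which have equal counts. Both list shares can thus be higher without a shift between genotypes. In all they had 197 peaks in WT and 211 in Chd7-deficient CGNs, a ratio of 1.07, below the 1.26 of the whole libraries and the 1.54 at the 10 genes.

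The labelled cell type was compared with start-site H3K27ac at marker genes. All 10 granule lineage markers had such a peak, from 3.55- to 31.6-fold, and none of 4 Purkinje cell and none of 2 microglial markers did. A peak was present at 3 of 4 glial markers (3.53 to 7.84-fold), at 1 of 4 oligodendrocyte lineage markers (Mbp, 7.3-fold), at 2 of 3 interneuron markers (4.25- and 4.34-fold) and at 1 of 2 endothelial markers (2.41-fold). Several of the 10 genes are also used by glia and interneurons, and the part of such cells in their acetylation was not tested. At Chd7 itself, WT GNPs had 3 Chd7 peaks and Chd7-deficient GNPs 0. Peaks near a gene do not measure its product, so these counts are not a check of the deletion.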

How the data were processed

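ChIP-seq peak tables of 5 libraries were used, 1 per condition. The authors trimmed reads with Trim Galore and mapped them to mm10 with Bowtie 1.0.0, keeping uniquely aligned pairs. They called Chd7 and H3K27ac peaks with macs2 at default settings and Top2b peaks with HOMER, per library. Which control macs2 used is not given in the sources used here. Input libraries were not analysed here.

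The deposited pileup is a coverage signal, the number of fragments over the summit, and in the H3K27ac table it comes in steps of 0.9412. The other columns deposited by the authors are the −log10 p-value, the fold enrichment over local background and the −log10 q-value. The decimal points of these values were missing, so each was divided by 100000, and p-values recomputed from pileup and background were used as a check. The deposited Top2b files hold start and end only, with a fixed width of 396 bp in WT and 400 bp in Chd7-deficient CGNs, and no height or score. Read totals are not given, so the depth of the libraries is not known. The median pileup over called peaks was 21 fragments in the WT Chd7 library and 28 in the Chd7-deficient one. It depends on which sites were called and does not measure depth. In the Chd7-deficient library only 57 of 96 peaks lay on chromosomes 1 to 19, X and Y. The median of 32 in the H3K27ac library is a scaled pileup and not a fragment count.

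Genes came from GENCODE M21 and sequences from GRCm38, whose chromosome names and lengths did not conflict with the peak coordinates. Peaks overlapped if they shared at least 1 bp. Pileups have exact 95% Poisson intervals, fold intervals follow from them with the background held fixed, and shares have Wilson intervals, none of which measures variation between animals. Super-enhancer-like regions were made by joining H3K27ac peaks within 12.5 kb. All 10 genes were named, with every Chd7 peak and, for H3K27ac, the start-site and highest peak of each, and other genes of the fixed list only where they had a Chd7 peak, apart from neighbours that describe a window. Further peaks are given to describe a window and were chosen after their values were seen. The genes and lists were chosen with earlier results of these data known. Alternatives changed the gene window, the q-value threshold, the overlap, the stitching and the background gene set. Counting of overlaps was tested on simulated data. Scripts ran in Python 3.11.15 with pysam 0.24.0 for sequence, pandas 2.3.3 and numpy 2.4.6 for tables, scipy 1.17.1 for intervals and matplotlib 3.10.9 for plots.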

Additional observations from a re-analysis of the deposited data

How the results depend on the processing

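Of 44 recomputed values, 38 stayed within 1.5 times the reported count or inside the Wilson interval of the reported share, and 6 moved further. The first set still includes changes such as Nefl losing its Chd7 peak, given below. With a window of 100 kb on each side, 5 of the 10 genes had a WT Chd7 peak in place of 3, since the peaks near Astn2 and Cntn2 were taken in. The share of protein-coding genes with a WT Chd7 peak, 14.3% as reported, was 4.33% for gene bodies only, 6.02% from 5 kb upstream to 1 kb downstream, 22.1% for 100 kb on each side, 5.42% at a −log10 q-value of at least 5 and 17.7% for genes of at least 30 kb. WT Chd7 peaks at the 10 genes numbered 4 to 8, and in gene bodies they were those of Gpm6a and the intronic peak of Gap43, so Nefl had none. Chd7-deficient GNPs had 0 under every window and threshold tried, and every WT Chd7 peak stayed at H3K27ac. H3K27ac peaks ranged from 77 to 127, WT Top2b peaks from 33 to 42 and those of Chd7-deficient CGNs from 43 to 69. Gpm6a alone overlapped a super-enhancer-like region under all 3 other constructions. The share of WT Top2b peaks without a counterpart ranged from 78.4% to 89.2%.

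No paired analysis was possible because each condition has 1 library. For the same reason no replicate was left out. A stricter Top2b threshold was not run, as those files hold no score. Low fragment counts limit the Chd7 comparison: the 6 summits hold 17 to 24 fragments and the lowest called WT summit 12. Sites below calling are not listed, so a missing peak does not show absent binding.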
